A study of Mus musculus with 27 samples.

Results

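Transcripts of 9 genes that mark alternative activation were followed in monocytes, macrophages and cDC1s of the inflamed mouse colon. The genes were Retnla, Chi3l3 (Ym1), Chi3l4 (Ym2), Ccl24, Mrc1, Mgl2, Il4ra, Stat6 and Pparg, taken by their symbols in the array annotation, which lists 30869 symbols in all. They were read by 16 of 45281 probes. Each gene is described by its brightest probe, judged by mean level on the 25 colon arrays, and 5 of the 9 genes had further probes. A gene counts as passed where any of its probes passed, and the count by brightest probes alone is given where it differs.

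The colon cells came from whole-body Mbd2-/- mice and from co-housed WT littermates, all on a C57BL/6 background and aged 8 to 22 weeks. Mbd2 is a protein that binds methylated CG pairs in DNA and is linked to gene repression. Every mouse behind the colon arrays had drunk 2% dextran sulphate sodium (DSS), a salt that injures the colon epithelium, for 6 days, so no colon group here was untreated. Monocytes (CD11b+ Ly6C+), macrophages (CD11b+ Ly6C- MHC-II+ F4/80+) and cDC1s (CD11b- CD11c+ CD103+, titled CD11bnegDC) were sorted from lamina propria cells that were negative for Ly6G and Siglec-F, the surface proteins of neutrophils and eosinophils. Monocytes and macrophages each had 5 WT and 5 Mbd2-/- arrays, and cDC1s had 2 WT and 3 Mbd2-/- arrays. A replicate held RNA pooled from 1 to 10 mice, so p-values measure the spread between such pools. Arrays are named here by the numbers in their labels. RNA of splenic CD4+ T cells, 1 WT and 1 Mbd2-/- array, came from another model, T cell transfer colitis at 6 weeks, and was not part of any comparison.

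Between 16024 and 18608 probes lay above background on each colon array, and mean intensity ran from 171.5 to 353.1. The cDC1 markers averaged 8.85 to 9.01 on the log2 scale in cDC1s and at most 6.67 elsewhere. The 11 macrophage markers other than Mrc1 averaged 11.19 to 11.51 in macrophages against 6.99 to 8.30 in cDC1s. The 7 monocyte markers other than Chi3l3 averaged 9.565 to 10.07 in monocytes and 7.42 to 8.13 in macrophages. Ccr2, a receptor among these monocyte markers, was above background on 1 of 5 WT and 0 of 5 Mbd2-/- monocyte arrays. Epithelial markers averaged 7.675 to 9.47 over the colon arrays. The only Mbd2 probe was above background on 0 of 27 arrays, so the loss of Mbd2 could not be checked with it. In RNA from sorted populations, fewer cells of a type and less RNA per cell cannot be told apart.

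Alternative activation is the programme that macrophages enter under IL-4 and IL-13. Both cytokines act through receptors that contain the chain IL-4Ralpha, which leads to phosphorylation of STAT6, and STAT6 then binds DNA and switches on a set of target genes together with partners such as PPARgamma. The targets include secreted proteins (RELMalpha from Retnla, the chitinase-like lectins Ym1 and Ym2, the eotaxin CCL24) and surface lectins (the mannose receptor from Mrc1, the galactose-type lectin from Mgl2). In the colon, RELMalpha and the mannose receptor are familiar from resident macrophages, and Ym1 is also made by immature myeloid cells.

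The 3 secreted members with the widest range in these cells are shown first by the 250 bases before their transcription start, because Chi3l3 and Chi3l4 followed each other across the arrays and stood highest in monocytes, while Retnla stood highest in macrophages. The sequences are RefSeq's on build GRCm38.p6, at chr16:48842359-48842608 on the plus strand for Retnla, chr3:106167565-106167814 on the minus strand for Chi3l3 (now Chil3) and chr3:106219480-106219729 on the minus strand for Chi3l4 (now Chil4). Each runs 5′ to 3′ along the gene's strand. Capitals mark TTCNNNNGAA, the spacing that STAT6 prefers, or TTCNNNGAA, the spacing that other STAT proteins share, and each of these patterns reads the same on both strands.

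Retnla: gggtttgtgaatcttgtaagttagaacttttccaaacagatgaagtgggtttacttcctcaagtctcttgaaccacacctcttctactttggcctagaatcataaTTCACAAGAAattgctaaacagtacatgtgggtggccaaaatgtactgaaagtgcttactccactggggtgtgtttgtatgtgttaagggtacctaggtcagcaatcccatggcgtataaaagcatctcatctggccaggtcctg

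Chi3l3: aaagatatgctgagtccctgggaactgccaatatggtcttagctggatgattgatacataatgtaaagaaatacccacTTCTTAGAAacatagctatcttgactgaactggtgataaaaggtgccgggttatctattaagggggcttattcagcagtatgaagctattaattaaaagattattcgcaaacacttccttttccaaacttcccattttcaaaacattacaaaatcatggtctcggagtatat

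Chi3l4: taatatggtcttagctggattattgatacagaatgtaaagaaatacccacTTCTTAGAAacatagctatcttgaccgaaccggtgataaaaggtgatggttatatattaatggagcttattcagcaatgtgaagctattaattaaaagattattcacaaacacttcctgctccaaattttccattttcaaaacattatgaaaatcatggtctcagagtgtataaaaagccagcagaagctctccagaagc

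Retnla held 1 match to TTCNNNNGAA, which began 145 bases before the start, and Chi3l3 and Chi3l4 held 1 match each to TTCNNNGAA, which began 172 and 200 bases before it. No capitals of one pattern overlapped the other. Windows of this length existed for 8 of the 9 genes, and TTCNNNNGAA was in the windows of 1 and TTCNNNGAA in those of 2. Over all 32851 windows, 5.85% held TTCNNNNGAA and 7.02% held TTCNNNGAA. The windows of Chi3l3 and Chi3l4 could be aligned over 220 bases with 2 gaps, and 201 of the aligned bases (91.4%) were identical. CG pairs, the site that Mbd2 reads when it is methylated, were few: 1 in Retnla, 3 in Chi3l3 and 2 in Chi3l4, beside a median of 6 and quartiles of 2 and 16 over all windows. A match of letters is no binding site, and methylation was not measured on these arrays.

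In macrophages Retnla stood far above its level in the other cells. On the log2 scale of normalised intensity it read 12.89, 11.89, 12.72, 12.57 and 12.59 on WT macrophage arrays 11 to 15, and 11.47, 11.70, 11.99, 11.43 and 11.05 on Mbd2-/- macrophage arrays 16 to 20. WT monocyte arrays 1 to 5 read 8.51, 7.32, 8.57, 8.89 and 8.88, and Mbd2-/- monocyte arrays 6 to 10 read 7.81, 7.23, 7.07, 6.36 and 7.04. WT cDC1 arrays 23 and 26 read 5.59 and 5.52, and Mbd2-/- cDC1 arrays 27, 28 and 30 read 6.39, 6.81 and 5.23. Every macrophage array thus lay above every monocyte array, while the lowest WT monocyte array and the highest Mbd2-/- monocyte array overlapped the other genotype.

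In order, Retnla stood at 12.53 ± 0.38 (SD, n = 5) in WT macrophages, 11.53 ± 0.35 (SD, n = 5) in Mbd2-/- macrophages, 8.43 ± 0.65 (SD, n = 5) in WT monocytes and 7.10 ± 0.52 (SD, n = 5) in Mbd2-/- monocytes. It stood at 6.15 ± 0.82 (SD, n = 3) in Mbd2-/- cDC1s and 5.55 ± 0.05 (SD, n = 2) in WT cDC1s, where it was above background on every array. Macrophages were above monocytes by 4.10 (standard error 0.32) in WT and 4.43 in Mbd2-/- on the log2 scale, which is 17.2-fold and 21.5-fold (limma adjusted p = 5.85e-09 and 1.38e-09). In this order, the neighbours that were compared and did not pass were the macrophages of both genotypes and the cDC1s of both genotypes. Mbd2-/- monocytes and Mbd2-/- cDC1s overlapped, and their difference of -0.96 (limma adjusted p = 0.0349) was -0.50 (0.314) without cDC1 array 30, -0.78 (0.0887) without monocyte array 6 and -0.93 (0.0573) without monocyte array 7. That call was also lost in 7 of 12 other settings, a threshold of 0.01 among them, with an adjusted p of at most 0.126.

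**Figure D1:**
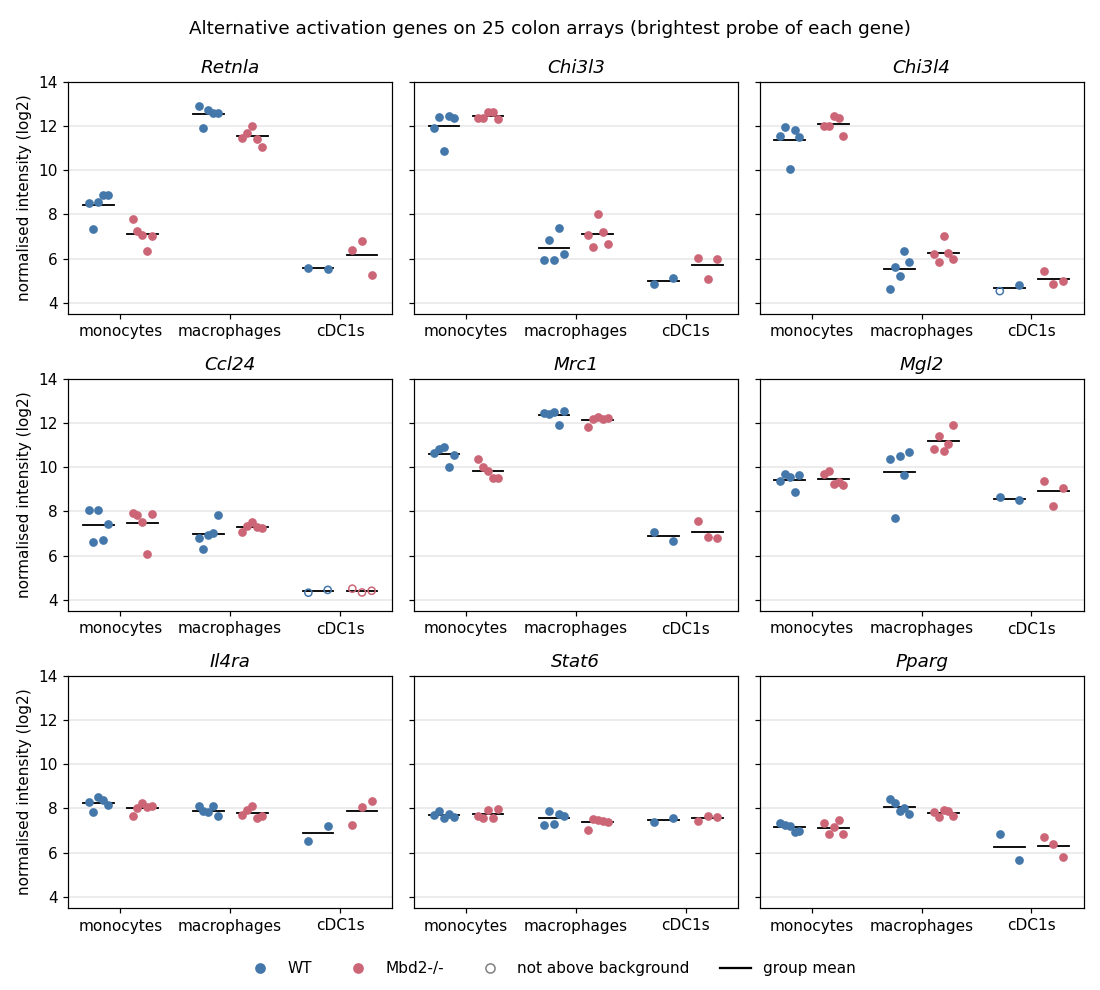
Normalised intensity (log2, vertical axis) of the brightest probe of each of the 9 genes on the 25 colon arrays, by cell type and genotype, with each point an array, open points not above background and bars the group means. Retnla and Mrc1 are highest in macrophages, Chi3l3 and Chi3l4 stand at 10.07 or higher in monocytes and at 8.02 or lower elsewhere, and Ccl24 is not above background on any cDC1 array.

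The study asked what loss of Mbd2 does to these cells in colitis. In monocytes, 2 of the 9 members passed an adjusted p of 0.05, Retnla and Mrc1, and both were lower in Mbd2-/-. Among all probes tested in monocytes 2.37% passed, and 1.3% passed and were lower. Retnla fell by 1.33 (standard error 0.32, 95% interval -1.99 to -0.68, limma adjusted p = 0.0261), a level 2.52-fold lower than in WT. For this report the signal columns of the deposited table were cut, in their order, into blocks of 6. These blocks stand in for position only and are not given in the labels. Within the 2 blocks that held monocytes the Retnla difference was -1.43 and -1.52. The call was lost when any 1 of the monocyte arrays 1, 3, 4, 5, 8, 9 and 10 was left out, with an adjusted p of at most 0.0804. Over the 10 fits without 1 monocyte array the difference lay between -1.61 and -1.15.

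Mrc1, the mannose receptor gene that also serves as a macrophage marker, read 10.62, 10.82, 10.91, 10.00 and 10.57 on the WT monocyte arrays and 10.38, 10.01, 9.83, 9.50 and 9.49 on the Mbd2-/- arrays. The lowest WT array lay among the Mbd2-/- arrays. The difference was -0.74 (standard error 0.19, 95% interval -1.14 to -0.34, limma adjusted p = 0.0438), and it was -1.29 in one block of columns and -0.21 in the other. Only the fits without monocyte array 4 or 6 kept the call among the 10 that left out 1 monocyte array, and the adjusted p in those 10 fits was between 0.0101 and 0.145. It was also lost, at 0.0510 to 0.0545, without any 1 of the macrophage arrays 11, 13, 17, 18 and 19, which share the estimate of spread. Beside these values, the other 11 macrophage markers averaged 10.23 to 10.45 on WT monocyte arrays and 10.18 to 10.39 on Mbd2-/- monocyte arrays. The 6 cDC2 markers other than Mgl2 averaged 7.67 to 8.11 on WT and 7.12 to 7.40 on Mbd2-/- monocyte arrays, and Cd209a and Irf4 among them passed as lower in Mbd2-/-. The 6 B and plasma cell markers averaged 6.30 to 6.69 and 5.72 to 6.24, with Cd79b and Tnfrsf17 lower. Neither pair of ranges overlapped, and their part in the Retnla and Mrc1 differences was not tested.

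In macrophages, 1 of the 9 members passed, Mgl2, which was higher in Mbd2-/-. Among all probes tested 7.21% passed, and 3.46% passed and were higher. Mgl2 encodes a lectin that binds galactose-type sugars. WT macrophages stood at 9.77 ± 1.23 (SD, n = 5) and Mbd2-/- macrophages at 11.18 ± 0.49 (SD, n = 5), a log2 difference of 1.41 (standard error 0.40, limma adjusted p = 0.0387). WT arrays read 10.35, 7.69, 10.50, 9.62 and 10.67, and Mbd2-/- arrays read 10.81, 11.39, 10.73, 11.05 and 11.93. The genotypes did not overlap, as held for 5.29% of all probes tested, and WT array 12 lay far below the other WT arrays. Without array 12 the difference was 0.90 with a limma adjusted p of 0.0745. The call was also lost without array 14 (0.0744), 17 (0.0586), 19 (0.0725) or 20 (0.117). With all arrays it was lost under median scaling (adjusted p = 0.106), no filter (0.101), macrophages fitted alone (0.174) and blocks of columns as a fixed term (0.0512). The dimmer Mgl2 probe rose by 0.94 (limma adjusted p = 0.0422) and followed the brighter one over the 25 arrays (Pearson r = 0.919, a description over arrays that share cell types). Mgl2 is also a marker of cDC2s, and the other 6 cDC2 markers averaged 7.94 to 8.41 in WT macrophages and 7.88 to 8.19 in Mbd2-/- macrophages. Those 6 include Irf4 and Clec10a, whose own values are given further on.

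In macrophages the Retnla difference between Mbd2-/- and WT was -1.01 (95% interval -1.66 to -0.35), with a limma adjusted p of 0.0551 that did not pass. Array 12 was the WT array that overlapped the Mbd2-/- arrays, and the differences within the 2 blocks of columns that held macrophages were -1.26 and -0.86. The adjusted p was 0.0191 with the block of columns as a term and 0.0310 with an offset of 50 in the background correction, and it was 0.0711 with cyclic loess, 0.0974 with median scaling and 0.141 with no filter. Of the 10 fits without 1 macrophage array 0 passed, with an adjusted p of 0.0546 to 0.149. The difference between the genotype effects of macrophages and monocytes was 0.33 (standard error 0.45, 95% interval -0.60 to 1.25, limma adjusted p = 0.895). The genotype effects of macrophages and monocytes came from separate arrays and a shared estimate of spread. The interval of their difference spans 0.

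In cDC1s, 1 of the 8 members tested passed, Il4ra, which was higher in Mbd2-/-. Among all probes tested 8.61% passed, and 4.55% passed and were higher. Il4ra, the receptor chain shared by IL-4 and IL-13, read 6.52 and 7.22 on the WT arrays and 7.23, 8.04 and 8.33 on the Mbd2-/- arrays. The highest WT array and the lowest Mbd2-/- array were nearly equal, and the groups did not overlap, as held for 31.8% of all probes tested with so few arrays. The difference was 1.00 (standard error 0.26, 95% interval 0.46 to 1.54, limma adjusted p = 0.0215). It was 0.65 (limma adjusted p = 0.286) without WT array 23, 0.92 (0.0644) without Mbd2-/- array 28 and 0.77 (0.0917) without Mbd2-/- array 30. Under median scaling it was 0.30 (limma adjusted p = 0.602), where the median of all probes tested was -0.37, so that Il4ra lay 0.66 above that median.

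Other values differed between the cDC1 groups as well. The 7 monocyte markers other than Chi3l3 averaged 6.82 to 6.89 on WT cDC1 arrays and 7.17 to 7.51 on Mbd2-/- cDC1 arrays, and the 11 macrophage markers other than Mrc1 averaged 6.99 to 7.22 and 7.15 to 8.30. Neutrophil markers averaged 5.38 to 5.42 and 5.69 to 6.29, and B and plasma cell markers 5.22 to 5.33 and 5.345 to 5.69. Eosinophil markers averaged 5.10 to 5.24 and 5.31 to 5.43. The monocyte, neutrophil, B and plasma cell and eosinophil ranges did not overlap. With so few arrays, the genotypes also did not overlap for 31.8% of all single probes tested. Of 8 eosinophil genes, 1 to 3 were above background on WT cDC1 arrays and 2 to 4 on Mbd2-/- cDC1 arrays. The macrophage, T cell (6.30 to 7.66 and 5.88 to 7.53), cDC2, epithelial and mast cell ranges overlapped. In both genotypes Cd3d, Cd3e and Cd3g passed as higher in cDC1s than in macrophages, and Cd4 passed as lower. The part of all these markers in the Il4ra result was not tested. The WT and Mbd2-/- cDC1 arrays also came from different blocks of columns in the table, so position and genotype cannot be told apart for them. The 9 cDC1 markers averaged 8.85 to 8.93 in WT and 8.86 to 9.01 in Mbd2-/-.

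Il4ra was also the member whose genotype effect differed between cell types. Its effect in cDC1s exceeded that in macrophages by 1.09 (standard error 0.32, limma adjusted p = 0.0397), as passed for 7.7% of all probes tested, and exceeded that in monocytes by 1.22 (limma adjusted p = 0.0533). Il4ra stood at 8.24 ± 0.25 (SD, n = 5) and 8.02 ± 0.22 (SD, n = 5) in WT and Mbd2-/- monocytes and at 7.90 ± 0.19 (SD, n = 5) and 7.80 ± 0.22 (SD, n = 5) in WT and Mbd2-/- macrophages, with genotype differences of -0.22 (95% interval -0.60 to 0.16) and -0.10 (95% interval -0.47 to 0.28) that did not pass. WT cDC1s were below WT macrophages by a log2 difference of -1.03 (limma adjusted p = 0.00161), which was -0.68 (0.107) without array 23. Mbd2-/- cDC1s differed from Mbd2-/- macrophages by 0.07 (95% interval -0.37 to 0.50).

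No member passed the same test between macrophages and monocytes, where 0.0372% of all probes passed by limma and 2 of the 9 members (1 by brightest probes) had an unadjusted p under 0.05, as did 8.18% of all probes. None passed between cDC1s and monocytes, where 1.62% of all probes passed and 4 of the 9 (3 by brightest probes) had an unadjusted p under 0.05, as did 17.7% of all probes. The further member was Chi3l3 both times. Retnla had differences of 1.60 against macrophages and 1.92 against monocytes with adjusted p of 0.0766 and 0.0765.

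**Figure D2:**
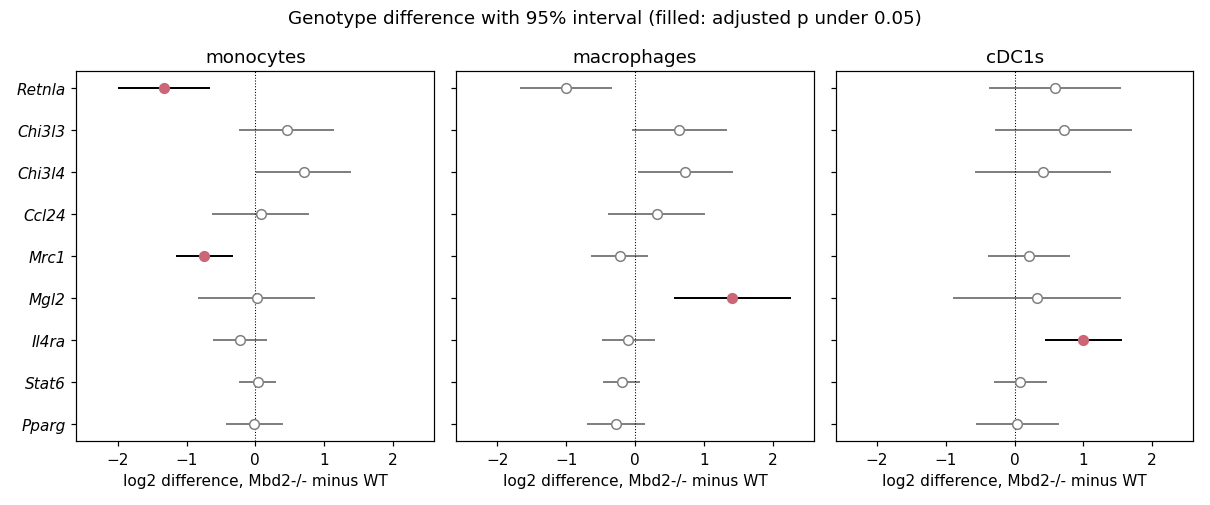
Log2 difference between Mbd2-/- and WT (horizontal axis) for each gene in monocytes, macrophages and cDC1s, with bars the 95% intervals of the limma fit and filled points an adjusted p under 0.05. Retnla and Mrc1 in monocytes lie below 0, Mgl2 in macrophages and Il4ra in cDC1s lie above it, and Ccl24 was not tested in cDC1s.

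Over the members tested, the median log2 difference between genotypes was 0.02 in monocytes, -0.10 in macrophages and 0.37 in cDC1s, beside medians of -0.02, -0.07 and 0.03 over all probes tested. At an unadjusted p under 0.05 there were 4 of 9 members in monocytes (15.4% of all probes), or 3 by brightest probes since Chi3l3 counted through its dimmest probe, 3 of 9 in macrophages (25.3%) and 1 of 8 in cDC1s (25.8%). The genotypes did not overlap for 0 of 9 members in monocytes (4.85% of all probes) and for Mgl2 alone in macrophages (5.29%). In cDC1s they did not overlap for 2 of the 8 members tested (31.8%), Il4ra and Chi3l4. The highest WT cDC1 array of Chi3l4 read 4.823 and the lowest Mbd2-/- array 4.83, and WT array 23 (4.526) was not above background.

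Chi3l3 and Chi3l4, the Ym1 and Ym2 genes, stood highest in monocytes, where Retnla was well below its level in macrophages. Chi3l3 read 11.92, 12.39, 10.88, 12.47 and 12.35 on the WT monocyte arrays and 12.38, 12.36, 12.64, 12.62 and 12.30 on the Mbd2-/- monocyte arrays. In macrophages it read 5.96, 6.84, 5.92, 7.38 and 6.19 in WT and 7.08, 6.53, 8.02, 7.21 and 6.65 in Mbd2-/-. In cDC1s it read 4.83 and 5.12 in WT and 6.02, 5.05 and 6.00 in Mbd2-/-. All 10 monocyte arrays lay above all macrophage and cDC1 arrays, and the genotypes overlapped in each cell type.

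From monocytes to macrophages the log2 difference of Chi3l3 was -5.55 (standard error 0.33) in WT and -5.36 in Mbd2-/-, which puts monocytes 46.8-fold and 41.1-fold higher (limma adjusted p = 2.20e-10 and 1.68e-10). From macrophages to cDC1s it was -1.48 in WT and -1.41 in Mbd2-/- (limma adjusted p = 0.00896 and 0.00384), and the WT call was lost without cDC1 array 23 (-1.33, adjusted p = 0.103). Between genotypes Chi3l3 was 0.64 higher in Mbd2-/- macrophages (95% interval -0.03 to 1.32, limma adjusted p = 0.222) and 0.71 higher in Mbd2-/- cDC1s (95% interval -0.26 to 1.69, limma adjusted p = 0.357). The 7 other monocyte markers averaged 7.42 to 7.84 on WT macrophage arrays and 7.85 to 8.13 on Mbd2-/- macrophage arrays, and their part in the Chi3l3 values was not tested.

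The probes of these neighbouring, closely related genes on chromosome 3 could not be assigned to 1 transcript each. The brighter Chi3l4 probe followed the brightest Chi3l3 probe with a Pearson r of 0.995 over the 25 arrays, beside an r of 0.996 between both brighter Chi3l3 probes, and the points share cell types. It stood at 11.37 ± 0.75 (SD, n = 5) and 12.07 ± 0.36 (SD, n = 5) in WT and Mbd2-/- monocytes and at 5.53 ± 0.64 (SD, n = 5) and 6.26 ± 0.45 (SD, n = 5) in the macrophages. The dimmer Chi3l4 probe was above background on no array. Probe sequences were not analysed here, so Chi3l3 and Chi3l4 signal is reported as uncertain between the genes.

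The dimmest Chi3l3 probe read 7.83, 8.17, 4.78, 6.24 and 7.30 on the WT monocyte arrays and 8.60, 8.59, 7.87, 7.96 and 8.45 on the Mbd2-/- arrays, a difference of 1.43 that did not pass (limma adjusted p = 0.0656). WT array 3 was the lowest of the WT monocyte arrays for all 3 Chi3l3 probes. On WT macrophage arrays the probe was not above background, which puts WT monocytes at least 4.78-fold higher (group means 6.86 and 4.34, limma adjusted p = 7.37e-05). Such a bound sets the mean of the bright group against the dimmest signal still above background on each array of the dim group, or the probe's own signal where that is higher.

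**Figure D3:**
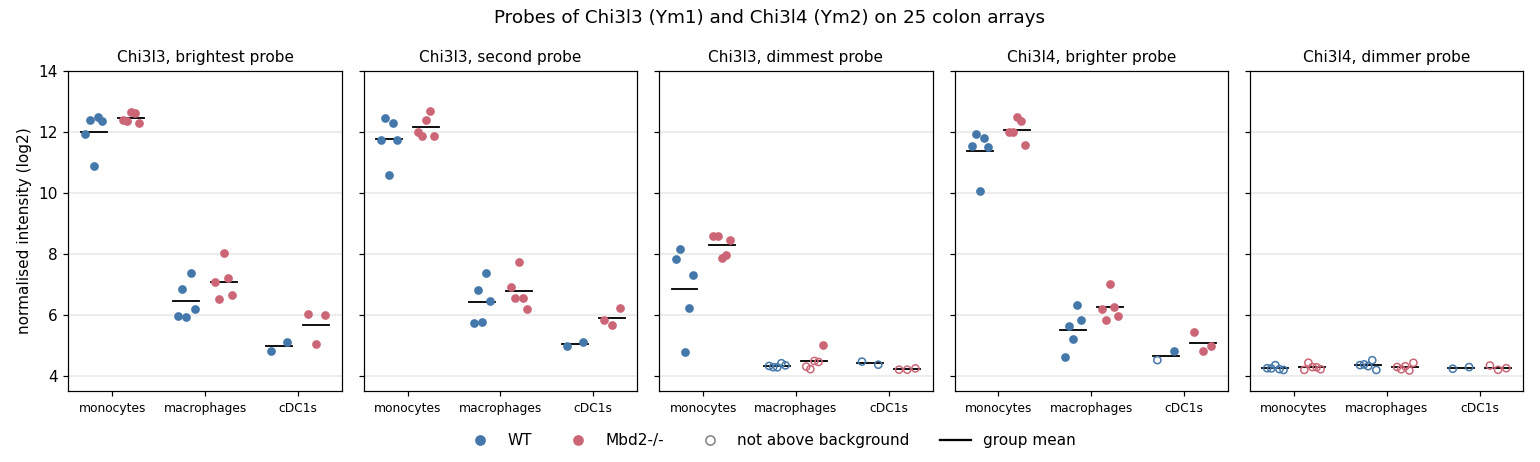
Normalised intensity (log2, vertical axis) of the 3 Chi3l3 and 2 Chi3l4 probes on the 25 colon arrays, with each point an array, open points not above background and bars the group means. Both brighter Chi3l3 probes and the brighter Chi3l4 probe have monocytes at 10.07 or higher, the dimmest Chi3l3 probe is above background in monocytes and on 1 macrophage array, and the dimmer Chi3l4 probe is above background on no array.

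Ccl24, an eotaxin that draws eosinophils, was shared by monocytes and macrophages and not above background on any of the 5 cDC1 arrays. WT monocyte arrays read 8.04, 6.62, 8.06, 6.72 and 7.43 and Mbd2-/- monocyte arrays 7.92, 7.83, 7.52, 6.09 and 7.89. WT macrophages stood at 6.98 ± 0.55 (SD, n = 5), and the Mbd2-/- arrays gave 7.29 ± 0.18 (SD, n = 5). The genotypes overlapped in both cell types. Ccl24 was at least 5.29-fold higher in WT macrophages and at least 6.96-fold higher in WT monocytes than in WT cDC1s, whose measured mean was 4.38 (limma adjusted p = 6.66e-05 and 1.14e-05). In Mbd2-/- the bounds were at least 6.22-fold and at least 6.96-fold.

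Of the surface lectins, Mrc1 stood highest in macrophages in both genotypes and Mgl2 in Mbd2-/- macrophages. Mrc1 stood at 12.36 ± 0.24 (SD, n = 5) in WT macrophages, 10.58 ± 0.35 (SD, n = 5) in WT monocytes and 6.87 ± 0.28 (SD, n = 2) in WT cDC1s. Macrophages were higher than monocytes by 1.78 in WT and 2.29 in Mbd2-/- (limma adjusted p = 5.72e-07 and 1.30e-08). From macrophages to cDC1s the difference was -5.49 and -5.06, so that macrophages stood 45.1-fold and 33.4-fold higher. Mgl2 separated macrophages from monocytes in Mbd2-/- cells by 1.73 (limma adjusted p = 0.00237). In WT cells the brighter probe gave 0.34 (limma adjusted p = 0.590) and the dimmer probe 1.01 (limma adjusted p = 0.00935), so the probes fell on different sides of the threshold there. The brighter probe's value was 0.86 (limma adjusted p = 0.0228) without WT macrophage array 12 and 0.12 (0.875) without array 15.

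Of the genes that carry the IL-4 signal, Pparg differed between all 3 cell types and Stat6 passed once. Pparg encodes a nuclear receptor that cooperates with STAT6, and stood at 8.05 ± 0.27 (SD, n = 5) in WT macrophages, 7.14 ± 0.18 (SD, n = 5) in WT monocytes and 6.26 ± 0.84 (SD, n = 2) in WT cDC1s. Macrophages exceeded monocytes by 0.91 in WT and 0.64 in Mbd2-/- (limma adjusted p = 0.00146 and 0.0157), and cDC1s differed from macrophages by -1.79 and -1.47 (limma adjusted p = 9.48e-06 and 1.27e-05). From monocytes to cDC1s the difference was -0.88 in WT and -0.83 in Mbd2-/- (limma adjusted p = 0.00936 and 0.00413). Without WT cDC1 array 26 the WT values were -1.20 against macrophages and -0.29 (adjusted p = 0.500) against monocytes, and without Mbd2-/- array 30 the Mbd2-/- value against monocytes was -0.59 (0.0585). Its other probes were above background on at most 3 arrays of any group. Stat6 lay between 7.02 and 7.99 on all 25 arrays. It passed in 1 of 9 comparisons of genotypes or cell types, a log2 difference of -0.37 from Mbd2-/- monocytes to Mbd2-/- macrophages (limma adjusted p = 0.0259). That call was lost without array 8 (0.0751), 10 (0.0816) or 16 (0.0851). Its dimmer probe was above background on at most 1 array of any group.

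Between macrophages and monocytes, 6 of 9 members passed in WT and 7 of 9 in Mbd2-/-, against 25.7% and 29.5% of all probes tested. Between cDC1s and macrophages 7 of 9 passed in each genotype, all lower in cDC1s, against 19.3% and 22.1% of all probes that passed and were lower. Between cDC1s and monocytes 8 of 9 passed in WT and 6 of 9 in Mbd2-/-, all lower in cDC1s, against 17.5% and 22.3%. By brightest probes alone the WT counts were 5, 6 and 7, because Mgl2 passed in WT only through its dimmer probe, and the Mbd2-/- counts were 7, 7 and 6. The Chi3l4 call between cDC1s and macrophages in Mbd2-/- was lost without array 28 (adjusted p = 0.0612). These comparisons share arrays, since the macrophage, the monocyte and the cDC1 arrays each serve in 2 of them per genotype. The monocyte and macrophage arrays lay in different blocks of columns, so position in the table and cell type cannot be told apart for them.

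**Figure D4:**
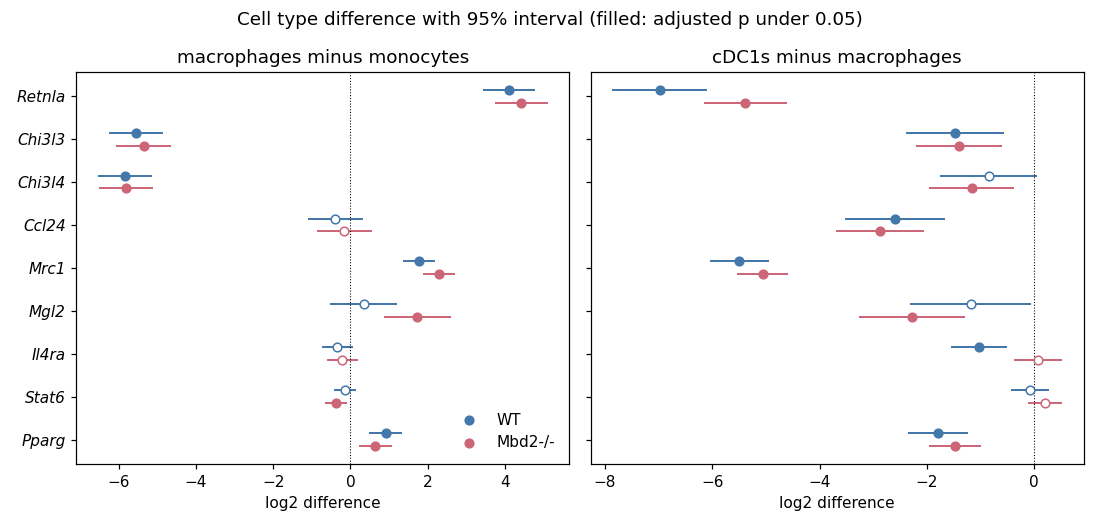
Log2 difference (horizontal axes) between macrophages and monocytes and between cDC1s and macrophages for each gene, with bars the 95% intervals of the limma fit, WT in blue, Mbd2-/- in red and filled points an adjusted p under 0.05. Retnla and Chi3l3 move in opposite directions from monocytes to macrophages, by 4.10 and -5.55 in WT, and the Ccl24 differences from cDC1s are measured values whose bounds are in the text.

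The 5 genes whose brightest probe was most like that of Retnla over the 25 arrays, among 14405 genes above background on at least 5 arrays, were Cxcl4 (now Pf4), Msr2 (now Fcrls), Ccl7, Folr2 and Fcna, with Pearson r between 0.964 and 0.970. Cxcl4 is a platelet and macrophage chemokine, Ccl7 a monocyte chemokine, Folr2 a folate receptor and Fcna a lectin. All 5 had their highest group mean in WT macrophages and means at or below 8.62 in cDC1s. The 5 most like Chi3l3 were Chi3l4, 1810033B17Rik (now Mcemp1), 5730528L13Rik (now Msantd3), Sgms2 and Dmkn, with r between 0.969 and 0.995. Like Chi3l3, each of these stood higher in monocytes than in macrophages or cDC1s. The 25 points fall into cell types, so that these coefficients mostly rank genes by their levels in 3 cell types.

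Around the members, 51 further genes of IL-4 signalling, of the factors behind alternative activation, of its other markers and of close relatives were counted whole, and 50 of them were in the table. Between genotypes 3 were higher and 1 was lower of 39 tested in monocytes, 4 were higher and 1 was lower of 42 tested in macrophages, and 3 were higher and 3 were lower of 42 tested in cDC1s. Over all probes tested 2.37%, 7.21% and 8.61% passed in these comparisons. Their median log2 differences were -0.00016, 0.01 and -0.0039, beside -0.02, -0.07 and 0.03 over all probes tested.

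Among ligands, receptor chains, kinases and inhibitors of IL-4 and IL-13 signalling, 1 gene passed between genotypes. By limma, 0 of 12 tested passed in monocytes, 0 of 13 in macrophages and 1 of 12 in cDC1s, beside 2.37%, 7.21% and 8.61% of all probes. In monocytes and macrophages 2 genes each had an unadjusted p under 0.05, as did 15.4% and 25.3% of all probes. The gene that passed in cDC1s was Socs3, an inhibitor of cytokine receptors. WT cDC1s stood at 11.29 ± 0.16 (SD, n = 2) against 10.86 ± 0.04 (SD, n = 3) for Mbd2-/- cDC1s (log2 difference -0.43, limma adjusted p = 0.0267).

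Of 10 transcription and chromatin factors tested, 1 passed in monocytes, 1 in macrophages and 2 in cDC1s, beside 2.37%, 7.21% and 8.61% of all probes. Irf4 passed in monocytes and in macrophages and was lower in Mbd2-/- in both. Irf4 encodes a factor that takes part in alternative activation downstream of IL-4. In monocytes its arrays ran from 7.65 to 8.06 in WT and from 6.77 to 7.58 in Mbd2-/-, a difference of -0.75 (standard error 0.17, limma adjusted p = 0.0183). In macrophages they ran from 8.53 to 8.85 and from 7.63 to 8.33, again a difference of -0.75 (limma adjusted p = 0.0135). The genotypes did not overlap in either cell type, as held for 4.85% of all probes tested in monocytes and 5.29% in macrophages. In cDC1s Egr2, an immediate early factor, differed by -0.72 (limma adjusted p = 0.0260) and Rxra, the partner of PPARgamma, was higher by 0.57 (limma adjusted p = 0.0332).

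Of 17 other genes used as markers of alternative activation, 2 of 13 tested passed in monocytes, 3 of 15 in macrophages and 2 of 14 in cDC1s, beside 2.37%, 7.21% and 8.61% of all probes, and all of these were higher in Mbd2-/-. Arg1, the arginase of alternatively activated mouse macrophages, ran from 6.80 to 7.21 on WT and from 8.26 to 9.27 on Mbd2-/- macrophage arrays, a difference of 1.83 (standard error 0.23, limma adjusted p = 0.000100). In monocytes it was higher by 1.01 (limma adjusted p = 0.0198) and the genotypes overlapped. Arg1 averaged 8.47 and 9.48 in WT and Mbd2-/- monocytes and 6.99 and 8.82 in the macrophages. The 7 monocyte markers other than Chi3l3 averaged 7.42 to 7.84 on WT and 7.85 to 8.13 on Mbd2-/- macrophage arrays, with Ly6c1 and Plac8 passing as higher, and their part in the Arg1 difference was not tested. Pdcd1lg2, the gene of the PD-1 ligand PD-L2, was higher by 1.12 in monocytes and 1.07 in macrophages (limma adjusted p = 0.0147 in each). Clec10a, listed as Mgl1 and the sister gene of Mgl2, was higher by 0.76 in macrophages and 1.195 in cDC1s (limma adjusted p = 0.0371 and 0.0207), and Tgm2, a transglutaminase, was higher by 1.07 in cDC1s (limma adjusted p = 0.000370). In Mbd2-/- macrophages Arg1, Pdcd1lg2, Clec10a and Mgl2 were therefore higher while Irf4 was lower. Retnla differed by -1.01 and Mrc1 by -0.22, and neither passed (limma adjusted p = 0.0551 and 0.492). The Mgl2 call was lost without any 1 of 5 macrophage arrays. Arg1, Pdcd1lg2, Clec10a and Irf4 were not refitted without 1 array.

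**Figure D5:**
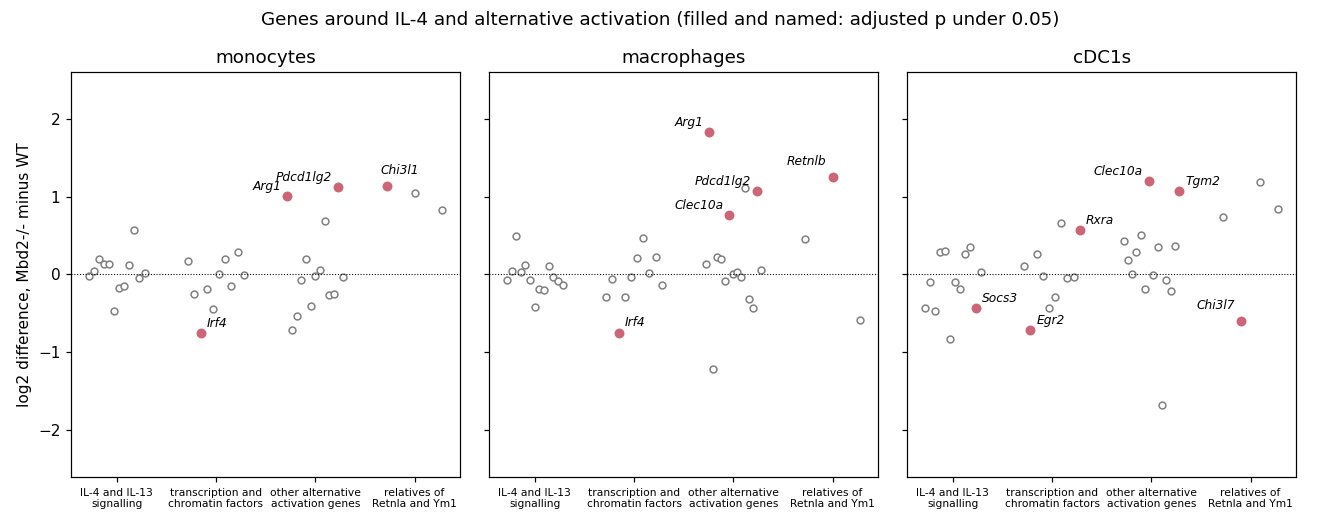
Log2 difference between Mbd2-/- and WT (vertical axis) for the brightest probe of each tested gene in 4 lists around IL-4 and alternative activation, in monocytes, macrophages and cDC1s, with filled and named points an adjusted p under 0.05. Arg1 and Pdcd1lg2 lie above 0 in monocytes and macrophages and Irf4 lies at -0.75 in both.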

How the data were processed

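Total RNA of sorted cells was labelled and hybridised to Illumina MouseWG-6 BeadChips. Per the file headers, the authors deposited the unnormalised intensity of every probe with a detection p-value against negative control probes. Their notes name lumi and limma. 3 further signal columns were not used. The groups came from the labels. For this report, intensities of the 25 colon arrays were background corrected with normexp on 936 negative control probes (offset 16), put on the log2 scale and quantile normalised over regular probes. One limma 3.58.1 fit in R 4.3.3 held 6 groups, so the cDC1 groups with 2 and 3 arrays borrowed the spread of the others. To be tested, a probe needed a detection p-value under 0.05 on a number of arrays no lower than the size of the smaller group, and it passed at a Benjamini-Hochberg adjusted p under 0.05 within the comparison, two-sided. Intervals are 95%. The number of arrays limits the precision, and the offset compresses differences of dim probes. Members, gene lists and likeness rules (all 9 members, list genes that pass between genotypes or are relatives, and the 5 genes most like Retnla or Chi3l3) were chosen with earlier results of these data known. Marker lists for 10 cell types served as level checks and are given beside some genotype differences, where their part was not tested. Local alignment scored a match 1, a mismatch -1, and a gap -3 to open and -1 to extend. The fit was run on simulated data with independent noise between arrays and changes planted only in probes above background on every colon array. That run says nothing about likeness between arrays or about dim probes. Settings varied are given in the closing section. Older symbols were matched to RefSeq names for all 9 members.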

Additional observations from a re-analysis of the deposited data

Results flagged for a closer look

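The genotype effect on Il4ra differed between cDC1s and macrophages by 1.09 on the log2 scale (limma adjusted p = 0.0397). The call was lost without cDC1 array 23 (0.75, adjusted p = 0.329), 28 (1.01, 0.0885) or 30 (0.87, 0.106), and, at 0.0511 to 0.0640, without any 1 of the macrophage arrays 11, 12, 14, 16, 19 and 20.

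Over 36 groups of 5 arrays, 6 held an array far from the others by Dixon's test at its 95% critical value of 0.71, and chance alone marks about 1 group in 20. These were Retnla on WT monocyte array 2 (7.32), Chi3l4 on WT monocyte array 3 (10.07), Ccl24 on Mbd2-/- monocyte array 9 (6.09), Mrc1 on WT macrophage array 14 (11.93) and on Mbd2-/- macrophage array 16 (11.82), and Stat6 on Mbd2-/- macrophage array 16 (7.02). Without WT monocyte array 2 the Retnla difference in monocytes was -1.61 (limma adjusted p = 0.00611).

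On the 2 arrays of splenic CD4+ T cells, which entered no comparison, 6 of the 9 members were above background by their brightest probe. Chi3l3 read 1262 on the WT array and 189.4 on the Mbd2-/- array in unnormalised intensity, and Chi3l4 read 832.8 and 157.4. Mrc1 read 140.7 and 156.2, Il4ra 128.4 and 103.6, Stat6 233.3 and 166.1, and Pparg 97.4 and 90.4. There is 1 array of each genotype, so these differences have no replicate check. Retnla, Ccl24 and the brighter Mgl2 probe were not above background on either array.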

How the results depend on the processing

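The counts of members that passed were small and moved with the settings. In monocytes the count of 2 became 1 with median scaling or with blocks of columns as a fixed term, and 0 with no filter, with the compared cell types fitted alone or at an adjusted p of 0.01. In macrophages the count of 1 became 2 with no background correction, an offset of 50, a strict filter or blocks of columns as a random or fixed term (with the fixed term the brighter Mgl2 probe gave 1.44 at an adjusted p of 0.0512 and only the dimmer one passed), and 0 with median scaling, no filter, the cell type alone or an adjusted p of 0.01. In cDC1s the count of 1 became 0 with median scaling, no filter, array weights, the cell type alone or an adjusted p of 0.01. For the difference of effects between cDC1s and macrophages the count of 1 became 0 in the same settings and with cyclic loess. Between cDC1s and monocytes the count of 0 became 1 with a strict filter. Without 1 array these counts ran from 0 to 2 in monocytes, 0 to 2 in macrophages, 0 to 1 in cDC1s, 0 to 2 for cDC1s against macrophages and 0 to 2 for cDC1s against monocytes. For macrophages against monocytes the difference of effects gave 0 throughout. Counts between cell types ran, in WT and Mbd2-/-, from 6 to 6 and 6 to 7 for macrophages against monocytes, 5 to 8 and 6 to 7 for cDC1s against macrophages, and 7 to 8 and 4 to 6 for cDC1s against monocytes. The cause was not tested.

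Median scaling moved the median of all probes tested to -0.26 in monocytes, -0.07 in macrophages and -0.37 in cDC1s. Under it the genotype difference reversed in monocytes for Ccl24 (-0.21), Mgl2 (-0.31) and Stat6 (-0.28), and in cDC1s for Mgl2 (-0.28), Mrc1 (-0.40), Pparg (-0.49) and Stat6 (-0.56), none of which passed in either setting. Relative to those medians the reversed values lay between -0.0530 and 0.0472 in monocytes and between -0.1896 and 0.0903 in cDC1s. Relative to those medians, Retnla in monocytes was -1.43 and Mgl2 in macrophages was 1.375 (adjusted p = 0.0153 and 0.106). Median scaling also reversed, in Mbd2-/-, Ccl24 from monocytes to macrophages (0.02054), and Il4ra (-0.74, adjusted p = 0.0348) and Stat6 (-0.6049) from macrophages to cDC1s, where the median was -0.449. The difference of effects of Mrc1 between cDC1s and macrophages became -0.13. Cyclic loess reversed Pparg in monocytes (0.0062), Stat6 in cDC1s (-0.0001153) and Il4ra from Mbd2-/- macrophages to cDC1s (-0.0053). Array weights reversed Mgl2 in monocytes (-0.012). Blocks of columns as a fixed term reversed Pparg in monocytes (0.058) and Il4ra from Mbd2-/- macrophages to cDC1s (-0.14). The mean of a gene's probes reversed Pparg in monocytes (0.069) and in cDC1s (-0.00098) and Stat6 in cDC1s (-0.0065).

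Leaving out 1 array at a time turned the sign of some values that did not pass, whose lowest and highest values follow. Genotype differences in monocytes ran from -0.11 to 0.42 for Ccl24, -0.11 to 0.087 for Mgl2, -0.10 to 0.065 for Pparg and -0.028 to 0.083 for Stat6. In cDC1s they ran from -0.047 to 0.41 for Mrc1, -0.55 to 0.63 for Pparg and -0.013 to 0.18 for Stat6. Between cell types, Il4ra ran from -0.17 to 0.38 for Mbd2-/- cDC1s against macrophages and from -0.38 to 0.17 for Mbd2-/- cDC1s against monocytes, and Stat6 ran from -0.17 to 0.022 for WT cDC1s against macrophages. The Retnla difference in monocytes had an adjusted p of 0.0715 with no filter and 0.0624 with monocytes fitted alone. In macrophages the adjusted p of Retnla was 0.0148 with no background correction, 0.0464 with a strict filter, 0.0478 with blocks of columns as a random term, 0.0974 with median scaling and 0.141 with no filter.

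No paired analysis was made, because the labels used here name no litter or experiment. The replicates came from 3 separate experiments, and the p-values take no account of likeness between arrays of the same experiment. Dim probes such as Ccl24 in cDC1s and the Mbd2 probe give only bounds. Groups of 2 and 3 cDC1 arrays borrow their spread from the other groups, and a lone cDC1 array is then assumed to vary like them.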

Other observations

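Close relatives of Retnla and Ym1 were measured on the same arrays. Between genotypes 1 of 3 tested passed in monocytes, 1 of 3 in macrophages and 1 of 4 in cDC1s, beside 2.37%, 7.21% and 8.61% of all probes. Retnlb, a RELM gene of goblet cells, stood between 7.97 and 9.22 as a group mean in all 6 groups. It was higher in Mbd2-/- macrophages by 1.25 (limma adjusted p = 0.0300), on arrays that overlapped between genotypes. The 10 epithelial markers, of which Retnlb is 1, averaged 7.89 to 9.47 on WT and 8.45 to 9.43 on Mbd2-/- macrophage arrays, and their part in the Retnlb difference was not tested. Of these 10 markers, 9 were above background on every macrophage array, and Epcam was above background on none.

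Retnlg, a RELM gene of neutrophils, stood at 8.25 ± 0.73 (SD, n = 5) and 9.07 ± 0.25 (SD, n = 5) in WT and Mbd2-/- monocytes and at 9.26 ± 0.55 (SD, n = 5) and 8.67 ± 0.79 (SD, n = 5) in the macrophages, and no genotype comparison of it passed. Chi3l1, the gene of the chitinase-like protein YKL-40, was higher in Mbd2-/- monocytes by 1.14 (limma adjusted p = 0.00512), from 5.34 ± 0.45 (SD, n = 5) to 6.48 ± 0.33 (SD, n = 5). Bclp2 (now Chil5, named Chi3l7 in the plot of pathway genes) fell by 0.60 in Mbd2-/- cDC1s (limma adjusted p = 0.0163) and was above background on no monocyte or macrophage array. The eotaxin gene Ccl11 stood between 7.38 and 8.59 as a group mean in all 6 groups, whereas Ccl24 was not above background in cDC1s.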
